A study of Rattus norvegicus with 57 samples.

Results

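The 45 genes described here act in mitosis and in the step into it. They were listed by name, with earlier results of these data known. A gene was measured by the probe set annotated to its symbol alone. Where a gene had several, the one of the highest mean log2 signal was used. Of the 45, 41 had such a probe set on the Affymetrix rat array, among 14218 genes measured in all; Nek2, Ndc80, Kif4a and Tpx2 had none. Livers came from male Han Wistar rats, 8 to 10 weeks old, housed singly and dosed daily by mouth with 0, 30 or 80 mg/kg methapyrilene, an antihistamine known as a rat liver toxicant, in carboxymethylcellulose. Controls received that vehicle. Rats were killed on day 4, 8 or 15 of dosing, or on day 24, when dosing had lasted 14 days and a further 10 days had passed without it. There were 12 groups of dose and day with 57 arrays in all, 1 per animal. The 80 mg/kg group of day 4 and the control and 30 mg/kg groups of day 24 held 4 arrays and the others 5.

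Cells enter mitosis when cyclin A and cyclin B activate the kinase Cdk1. Aurora and Polo-like kinases then build the spindle, the spindle checkpoint holds chromosomes until kinetochores are attached, and the anaphase-promoting complex (APC/C) destroys securin and the cyclins so that chromatids part and the cell divides. Transcripts of these genes accumulate in G2 and M phase. Hepatocytes of an adult liver rarely divide, and they re-enter the cycle after injury or loss of tissue. Whole liver was measured, so a change in the share of dividing cells and a change in RNA per cell cannot be told apart.

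Many promoters of this class hold a cell cycle genes homology region, or CHR, which MuvB complexes bind, and CCAAT boxes, which the factor NF-Y binds. RefSeq promoters of rat assembly GRCr8 were found for 36 of the 41 measured genes. In the window from 250 bases before to 50 bases after the start, a CHR (TTTGAA or TTTAAA on either strand) stood in 32 of the 36 (88.9%), against 27.9% of all 27456 rat promoters of that length. At least 1 CCAAT, on either strand, stood in 80.6% against 37.7%, and 2 or more in 61.1% against 11.5%. A CHR and at least 2 CCAAT boxes stood together in 20 of the 36 (55.6%), against 3.11% of all promoters. The 4 promoters without a CHR in this window were those of Melk, Cdca3, Kif18b and Ube2t. These are letter matches and not measured binding.

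The 250 bases before the start are shown, on each gene's own strand, for 7 of the genes whose signals are described further on, with CHR and CCAAT matches in capitals. Ccnb2 (chr8:79981659-79981908 on the minus strand), Cdk1 (chr20:19265043-19265292 on the plus strand) and Cks2 (chr17:13727520-13727769 on the minus strand) encode parts of the mitotic kinase and have 3 or 4 CCAAT boxes each. Nusap1 (chr3:127057045-127057294 on the plus strand), Prc1 (chr1:143659231-143659480 on the plus strand) and Top2a (chr10:84473094-84473343 on the minus strand) encode spindle and chromosome proteins. Aurka (chr3:181560770-181561019 on the minus strand) is shown for contrast, with a CHR and no CCAAT.
Ccnb2: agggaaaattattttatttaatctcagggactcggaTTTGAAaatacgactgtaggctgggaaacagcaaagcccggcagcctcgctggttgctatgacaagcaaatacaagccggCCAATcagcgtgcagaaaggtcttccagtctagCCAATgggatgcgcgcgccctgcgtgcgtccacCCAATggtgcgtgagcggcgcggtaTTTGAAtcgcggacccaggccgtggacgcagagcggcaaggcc
Cdk1: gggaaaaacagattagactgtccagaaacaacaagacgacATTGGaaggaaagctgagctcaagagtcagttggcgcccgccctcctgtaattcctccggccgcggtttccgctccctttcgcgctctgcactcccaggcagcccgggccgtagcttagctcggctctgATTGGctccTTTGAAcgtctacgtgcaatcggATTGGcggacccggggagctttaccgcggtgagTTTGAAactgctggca
Cks2: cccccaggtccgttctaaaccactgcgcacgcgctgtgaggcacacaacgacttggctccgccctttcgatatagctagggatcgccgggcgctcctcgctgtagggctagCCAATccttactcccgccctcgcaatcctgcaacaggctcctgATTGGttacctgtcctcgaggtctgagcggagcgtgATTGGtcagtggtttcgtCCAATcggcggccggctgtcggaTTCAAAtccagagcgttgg
Nusap1: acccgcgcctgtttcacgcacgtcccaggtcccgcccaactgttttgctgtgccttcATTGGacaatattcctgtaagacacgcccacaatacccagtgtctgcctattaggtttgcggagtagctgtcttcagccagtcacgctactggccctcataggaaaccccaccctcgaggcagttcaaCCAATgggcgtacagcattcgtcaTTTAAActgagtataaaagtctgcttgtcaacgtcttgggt
Prc1: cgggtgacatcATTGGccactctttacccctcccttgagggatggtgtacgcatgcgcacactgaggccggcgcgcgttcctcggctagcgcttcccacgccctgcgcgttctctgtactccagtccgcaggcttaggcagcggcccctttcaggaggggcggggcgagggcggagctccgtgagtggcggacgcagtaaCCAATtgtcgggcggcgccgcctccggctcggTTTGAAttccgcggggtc
Top2a: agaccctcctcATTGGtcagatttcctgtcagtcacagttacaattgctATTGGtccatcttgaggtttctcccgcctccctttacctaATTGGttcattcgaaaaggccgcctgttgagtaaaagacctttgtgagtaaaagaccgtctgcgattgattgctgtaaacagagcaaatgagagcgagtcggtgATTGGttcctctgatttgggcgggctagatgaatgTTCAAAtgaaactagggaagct
Aurka: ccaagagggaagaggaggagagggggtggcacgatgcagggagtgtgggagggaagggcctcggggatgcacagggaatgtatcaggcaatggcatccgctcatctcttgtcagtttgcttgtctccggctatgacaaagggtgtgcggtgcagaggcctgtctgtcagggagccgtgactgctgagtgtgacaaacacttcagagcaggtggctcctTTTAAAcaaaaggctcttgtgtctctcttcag
Counting the gene's first base as 0, the CHR nearest the start began at -43 in Ccnb2, -16 in Cdk1, -19 in Cks2, -18 in Prc1, -22 in Top2a and -32 in Aurka. In Nusap1 a match began at -41 and another at 9, outside the stretch shown.

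At 80 mg/kg nearly all of the mitosis genes rose together, by day 4, and stayed raised against the controls of each day while dosing went on. Of 41 measured, 38 rose on day 4 (median log2 difference 2.01), where 13.2% of all 14218 genes were called higher. On day 8, 41 rose (median 2.19, background 25.9%), and on day 15, 40 rose (median 2.06, background 29.8%). The median over all genes tested was 0.10, 0.16 and 0.15 on those days. None fell, where 6.49%, 12.3% and 15.6% of all genes did. The list was chosen with earlier results of these data known, so these counts describe it and are no independent test. A call is a Benjamini-Hochberg adjusted p under 0.05 over all genes in limma, on the log2 of the deposited signal. The genes that missed it on day 4 were Espl1, Plk1 and Ttk, and on day 15 Kntc1, so 37 rose on all of these days.

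The separation held animal by animal. Every 80 mg/kg array lay above every control array of its day in 39 of the 41 genes on day 4, 36 on day 8 and 40 on day 15. The groups of day 8 overlapped for Plk1, Ttk, Kntc1, Kif2c and Sapcd2. Over all genes every 80 mg/kg array lay above every control in 11.5%, 17.8% and 23.4% on days 4, 8 and 15. Between these days the change at 80 mg/kg was not called different for any of the 41 genes (0 at adjusted p under 0.05 in limma, and at an unadjusted p under 0.05 1 between days 4 and 8, 1 between days 8 and 15, and 0 between days 4 and 15). Over all genes 3.92%, 2.79% and 17.4% were called between these pairs of days. Each change is from the controls of its day, and these were lower on day 15 than on day 4 in 33 genes (median -0.61, 0 called). The median log2 signal of the 41 genes in 80 mg/kg animals was 5.81 to 6.52 on day 4 and 5.44 to 5.99 on day 15. In controls it was 3.54 to 5.18 and 3.29 to 4.33. The largest change fell on day 4 in 9 genes, on day 8 in 22 and on day 15 in 10. That order rested on 1 animal: without 80 mg/kg animal 4 of day 8, left out after the data were seen, the numbers were 19, 7 and 15.

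**Figure D1:**
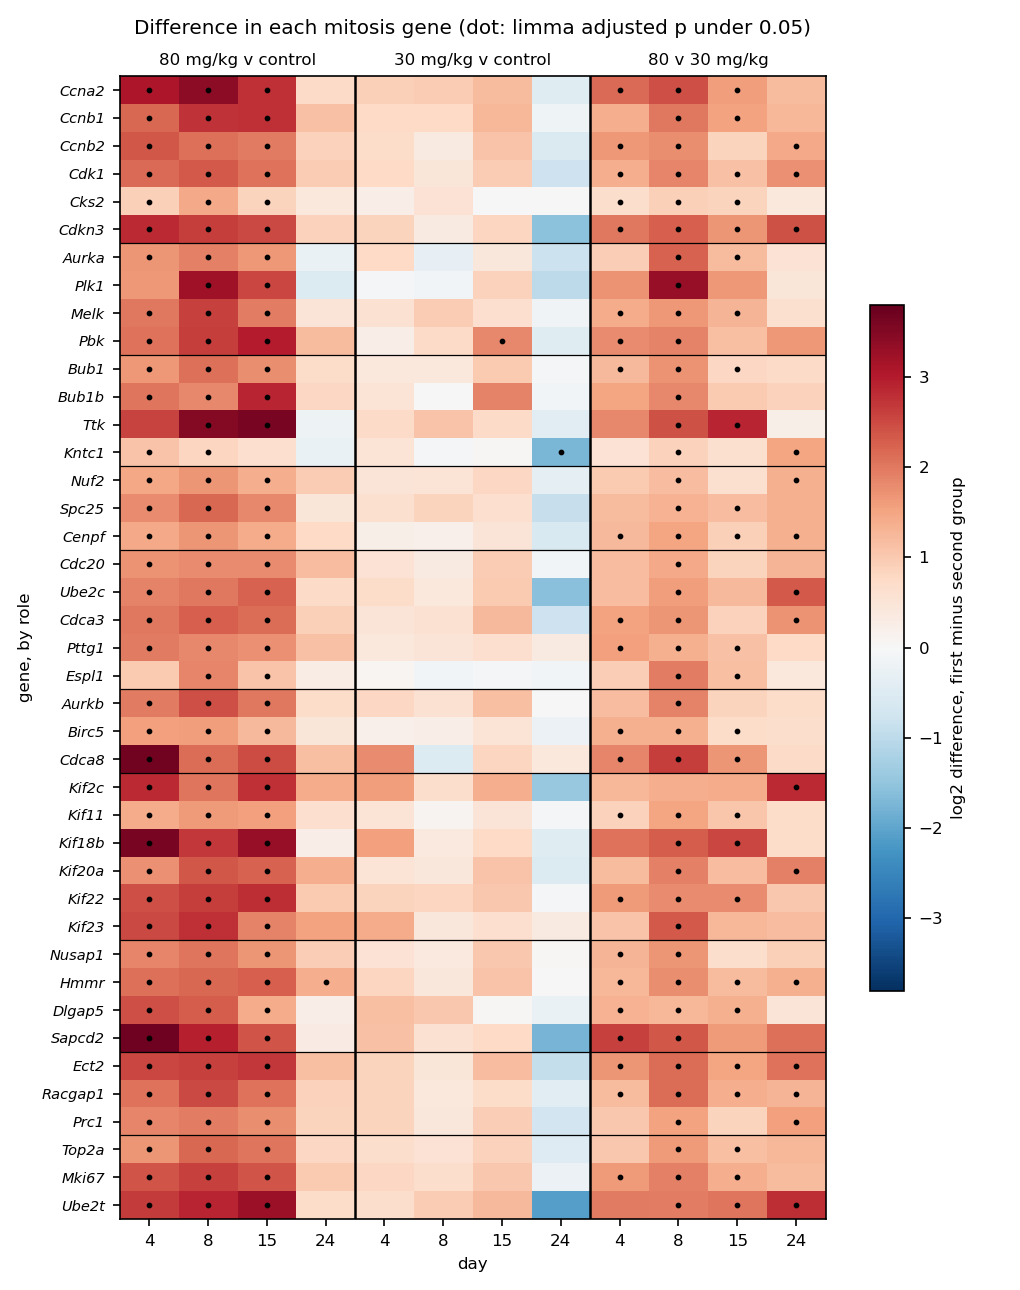
Log2 difference of each of the 41 mitosis genes (rows, in blocks by role) in 12 comparisons (columns, by day): 80 mg/kg against control, 30 mg/kg against control, and 80 against 30 mg/kg. Red is higher in the first group and blue lower, and a dot marks a limma adjusted p under 0.05; 38, 41, 40 and 1 genes have a dot at 80 mg/kg on days 4, 8, 15 and 24, against 0, 0, 1 and 1 at 30 mg/kg.

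Many of these genes had faint signals in control liver. The number of the 41 genes above 17.09, the median of all values in the table, ran from 12 to 31 (median 24) on the control arrays of day 4, from 6 to 25 (median 13) on those of day 15, and on day 4 from 36 to 41 on the 80 mg/kg arrays. Sapcd2 and Kif18b were above it on 4 arrays of 57, and Cks2 on all. Fold changes of the faint genes are therefore poorly bounded: Sapcd2 was 13.1-fold higher on day 4, and 4.21-fold with an offset of 3.31 added before the log. For Cks2 the same folds were 1.87 and 1.85. Of the 41 genes 10 had several probe sets, and 12, 13 and 11 of the 13 others lay above control at 80 mg/kg on days 4, 8 and 15. The exceptions were faint probe sets of Kif23 (-1.95 on day 4 and -0.04 on day 15) and of Cdc20 (-0.92 on day 15).

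Among the cyclins and partners of Cdk1, 6 of 6 rose on days 4, 8 and 15. Cyclin A2, Ccna2, which acts in S phase and at mitotic entry, read 67.4, 24.2, 21.1, 11.9 and 10.5 in the day 4 controls. At 80 mg/kg it read 147, 189, 223 and 163. The lowest treated animal was well above the highest control. The log2 difference was 3.07 ± 0.53 (SE, limma adjusted p = 1.81e-05), and on day 8 it was 3.39 ± 0.50 (adjusted p = 1.83e-07). The mitotic kinase Cdk1 itself read 56.4, 38.9, 21.2, 23.0 and 17.0 in day 4 controls and 93.0, 117, 175 and 135 at 80 mg/kg, again without overlap, a 4.47-fold difference. The B cyclins Ccnb1 and Ccnb2, its activators at mitotic entry, were 2.17 and 2.35 higher in log2 on day 4, and the Cdk1-associated phosphatase Cdkn3 was 2.84 higher.

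Cks2, a small subunit that binds Cdk1, had some of the smallest changes of the set, with small errors. Day 8 controls read 136, 127, 135, 142 and 143. The 80 mg/kg animals read 355, 315, 342, 720 and 253. Control values spanned a narrow range and the treated ones lay above it in all 5 animals. The log2 difference was 0.90 ± 0.15 on day 4 (limma adjusted p = 1.68e-05), 1.44 ± 0.15 on day 8 (1.58e-11) and 0.84 ± 0.15 on day 15 (2.70e-06).

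Of the 4 mitotic kinases, 3 rose on day 4 and 4 on days 8 and 15. Aurora A, Aurka, which matures centrosomes and spindle poles, read 17.1, 13.5, 15.2, 18.6 and 23.5 in day 8 controls. It read 80.3, 41.6, 61.0, 178 and 32.8 at 80 mg/kg. The lowest treated value was above the highest control, and the log2 difference was 1.92 ± 0.48 (limma adjusted p = 0.00106). Without 80 mg/kg animal 4 of day 4, the call of Aurka on day 4 (1.69 ± 0.51, adjusted p = 0.0134) was lost (adjusted p = 0.0615). Polo-like kinase Plk1, which drives spindle assembly and mitotic exit, was 1.65 higher on day 4 without a call, and 3.21 higher on day 8 with one. Melk and Pbk, kinases used as markers of cycling cells, rose by 2.59 and 2.63 on day 8.

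The spindle checkpoint genes gave 3 of 4 rises on day 4, 4 on day 8 and 3 on day 15. Bub1, a checkpoint kinase at kinetochores, read 17.1, 11.3, 24.8, 19.2 and 25.0 in day 8 controls and 96.0, 42.6, 78.6, 242 and 41.2 at 80 mg/kg. The groups did not overlap (log2 difference 2.09 ± 0.32, limma adjusted p = 5.53e-07). Bub1b, the checkpoint protein BubR1, was 1.84 higher on day 8. Ttk, the Mps1 kinase that starts checkpoint signalling, was 2.57 higher on day 4 without a call, and had the largest change of the set on day 8 (3.48 ± 0.92, adjusted p = 0.00177) and on day 15 (3.60 ± 0.92, adjusted p = 0.000922), from control signals of 0.32 to 15.0 on day 8. On day 8 the groups overlapped for Ttk, the lowest 80 mg/kg animal reading 12.4 against 15.0 in the highest control. Ttk did not rank first with the offset, where Ttk was 5.44-fold and Ccna2 8.98-fold higher on day 8, and Ttk 4.43-fold and Ccnb1 5.84-fold on day 15.

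Kntc1, a part of the complex that brings dynein to kinetochores, changed least on days 8 and 15. On day 8 its controls read 15.6, 16.3, 22.0, 23.3 and 13.2, and its treated animals 41.6, 16.5, 28.4, 77.9 and 19.5. These groups overlapped (log2 difference 0.82 ± 0.31, limma adjusted p = 0.0288). The call was lost without 80 mg/kg animal 4 of that day (0.49, adjusted p = 0.207), without treated animal 1, without control 1, 2 or 5, and under other scalings of the arrays.

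All 3 kinetochore genes rose on days 4, 8 and 15. Nuf2, a subunit of the complex that grips microtubules, read 19.3, 21.5, 38.5, 27.8 and 43.6 in day 8 controls and 85.6, 75.9, 70.5, 224 and 62.7 at 80 mg/kg. No treated animal was within the control range (log2 difference 1.68 ± 0.35, limma adjusted p = 0.000109). Spc25, of the same complex, was 2.19 higher, and the large kinetochore protein Cenpf 1.68 higher.

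Of the 5 genes of the APC/C pathway and of chromatid separation, 4 rose on day 4 and 5 on days 8 and 15. Cdca3, a mitotic-entry protein that the APC/C destroys, read 31.9, 30.8, 48.4, 37.5 and 62.9 in day 8 controls. It read 223, 123, 181, 511 and 112 at 80 mg/kg, all above the controls (log2 difference 2.26 ± 0.45, limma adjusted p = 4.48e-05). On day 8 the APC/C activator Cdc20 was 1.79 higher, its ubiquitin-conjugating enzyme Ube2c 1.99, and securin, Pttg1, 1.84. Separase, Espl1, which cuts cohesin once securin is gone, was 1.0 ± 0.43 higher on day 4 (adjusted p = 0.0948) and rose by 1.85 on day 8.

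In the chromosomal passenger complex, which corrects faulty attachments and sets up cytokinesis, 3 of 3 genes rose on each dosing day. Survivin, Birc5, read 32.4, 21.0, 34.7, 28.3 and 34.7 in day 8 controls and 90.1, 58.4, 86.9, 233 and 52.5 at 80 mg/kg. The treated animals were all above the controls (log2 difference 1.58 ± 0.26, limma adjusted p = 1.29e-06). Its kinase Aurkb was 2.45 higher that day. Borealin, Cdca8, read 12.4, 1.85, 1.79, 2.19 and 2.57 in day 4 controls and 27.5, 45.6, 49.1 and 31.9 at 80 mg/kg, a difference of 3.66 ± 0.60 (adjusted p = 8.49e-06) from very faint control signals.

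The 6 mitotic kinesins, motors that move chromosomes and slide or trim microtubules, rose on all 3 days of dosing. Kif20a, which carries the passenger complex to the midzone, read 20.2, 17.8, 30.1, 18.6 and 44.2 in day 8 controls and 119, 82.6, 115, 422 and 64.2 at 80 mg/kg. The groups were apart (log2 difference 2.35 ± 0.54, limma adjusted p = 0.00033). On day 4 the change was 1.73 ± 0.57 (adjusted p = 0.0242), and that call was lost without control 4 or 5 or treated animal 3 or 4 (adjusted p from 0.0540 to 0.0882). On day 8 Kif11, the motor that separates spindle poles, was 1.61 higher. The microtubule depolymerase Kif2c was 2.04 higher, the central spindle motor Kif23 2.77 and the chromosome arm motor Kif22 2.63. Kif18b, a motor at microtubule plus ends, was 2.68 higher.

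Of the spindle-associated proteins, 4 of 4 rose on days 4, 8 and 15. Nusap1, which bundles microtubules around chromosomes, read 26.8, 27.4, 44.0, 35.4 and 47.0 in day 8 controls. It read 198, 82.5, 131, 407 and 71.5 at 80 mg/kg, without overlap (log2 difference 2.04 ± 0.35, limma adjusted p = 4.59e-06). Hmmr, a hyaluronan receptor that also acts at spindle poles, was 2.19 higher and the spindle protein Dlgap5 2.29. Sapcd2, involved in spindle orientation, had the largest change of the set on day 4 (3.71 ± 0.80, adjusted p = 0.000439). With the offset it was 4.21-fold higher, below Ccna2 (7.22-fold), Cdkn3 (6.73-fold) and Cdca8 (6.11-fold).

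All 3 cytokinesis genes rose on days 4, 8 and 15. Prc1, which crosslinks the central spindle, read 36.6, 27.4, 38.5, 32.1 and 42.9 in day 8 controls and 146, 95, 120, 316 and 82.3 at 80 mg/kg, so the lowest treated animal was above the highest control (log2 difference 1.93 ± 0.40, limma adjusted p = 8.80e-05). Ect2, the exchange factor that activates RhoA at the cleavage furrow, was 2.60 higher and its partner Racgap1 2.50.

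The 3 remaining genes rose as well. Topoisomerase Top2a, which untangles chromosomes, read 23.1, 26, 41.7, 22.2 and 47.3 in day 8 controls and 155, 93.6, 124, 335 and 80.7 at 80 mg/kg. Again no animal overlapped (log2 difference 2.17 ± 0.40, limma adjusted p = 1.51e-05). The proliferation marker Mki67 was 2.61 higher and Ube2t, a ubiquitin-conjugating enzyme of the Fanconi DNA repair pathway, 2.88.

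**Figure D2:**
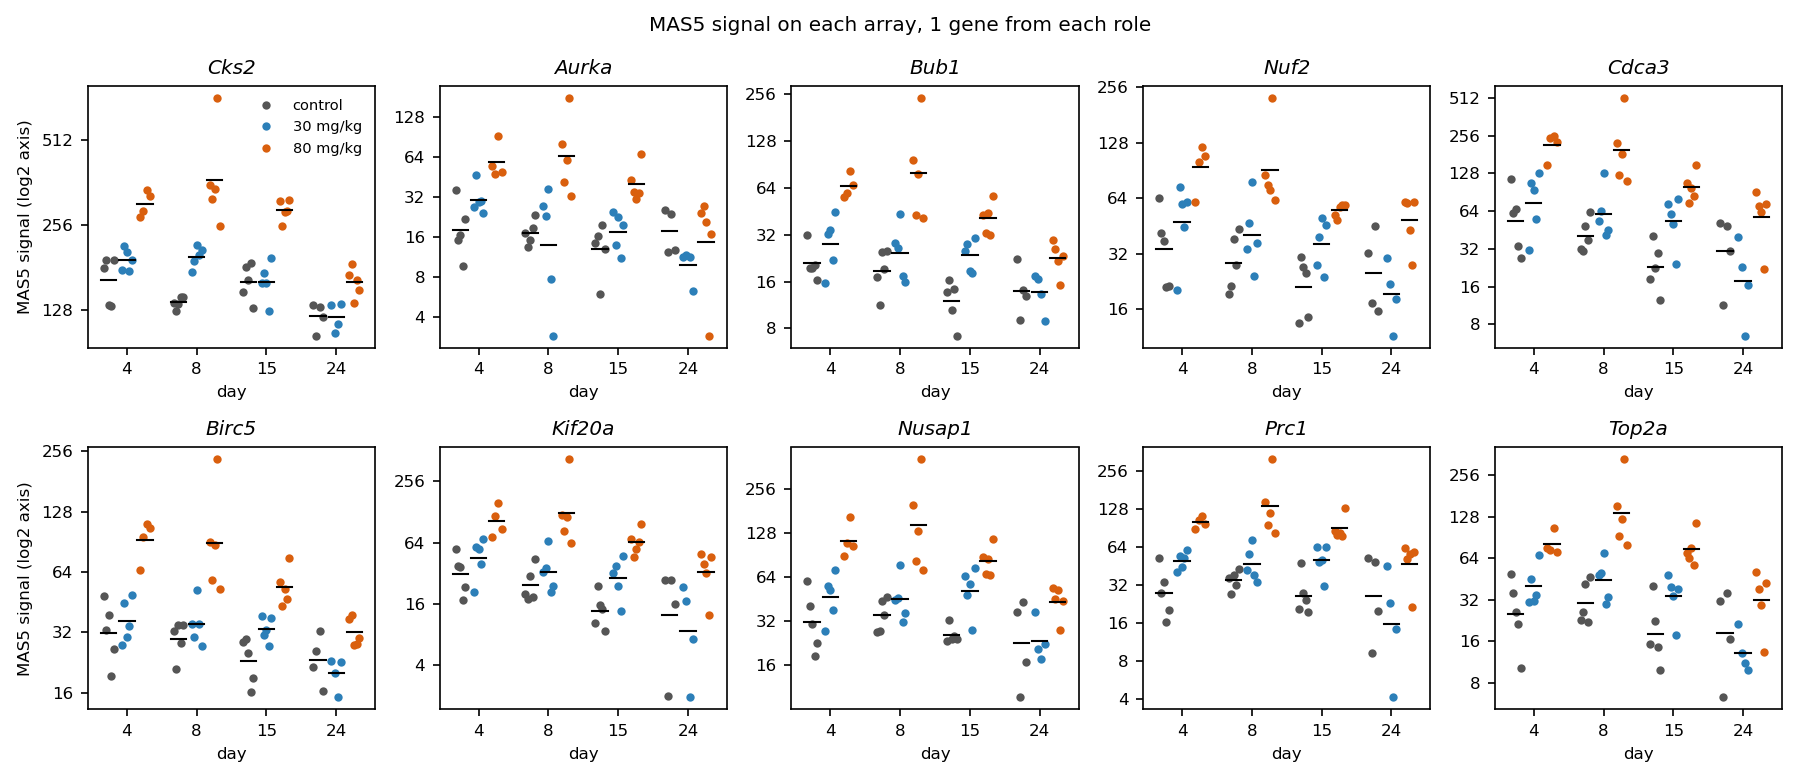
MAS5 signal on each array (log2 axis) by day for 1 gene of each role, with control in grey, 30 mg/kg in blue and 80 mg/kg in orange; each point is 1 animal and each bar the geometric mean of its group. On days 8 and 15 the lowest 80 mg/kg animal lies above the highest control in these 10 genes, and on day 24 the groups overlap in all of them but Cks2.

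At 30 mg/kg the same genes leaned upward during dosing, with almost no calls. On day 4, 40 of 41 lay above control (median log2 difference 0.71) and 0 were called, where 0.394% of all genes were. On day 8, 36 of 41 lay above control (median 0.43) and 0 were called, against 0.162%. In limma 9 and 4 of the 41 had an unadjusted p under 0.05 on these days. On day 15, 40 of 41 lay above control (median 0.89) and 1 rose, against 1.78% of all genes called higher, while 20 had an unadjusted p under 0.05. The median over all genes was 0.02, 0.01 and 0.01. Between days 4 and 15 the change at 30 mg/kg was called different for 0 of the 41 (0.0563% of all genes, and 1 of the 41 at an unadjusted p under 0.05 in limma).

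The gene called was Pbk, which read 7.26, 10.7, 1.19, 6.55 and 0.73 in day 15 controls and 16.2, 17.9, 9.06, 6.62 and 14.2 at 30 mg/kg. Of the 5 treated animals, 3 were above every control. The log2 difference was 1.83 ± 0.50 (limma adjusted p = 0.0300), and it was 1.02 with an adjusted p of 0.0950 when the offset was added. The call was also lost when only the groups compared were fitted (adjusted p = 0.201), without control 3 or 5, and without treated animal 1, 2 or 5. Without 30 mg/kg animal 4 of that day, which had the lowest signal of its group in 36 of the 41 genes, 4 genes were called.

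The change was larger at 80 than at 30 mg/kg for 41 of 41 genes on every day, the controls being shared. Tested directly, the signal at 80 mg/kg was higher in 22 genes on day 4 (9.16% of all genes), 40 on day 8 (23.5%) and 25 on day 15 (28.0%), and lower in none (4.75%, 10.8% and 13.7% of all genes). The medians were 1.33, 1.79 and 1.17. On day 8 the exception was Kif2c (1.37 ± 0.66, limma adjusted p = 0.103). Plk1 differed most there, by 3.30 ± 0.74 (adjusted p = 0.000362): the 30 mg/kg animals read 1.24, 10.2, 20.3, 4.02 and 1.81, and the 80 mg/kg animals 59.7, 25.4, 39.3, 145 and 20.4. The highest low-dose animal almost reached the lowest high-dose animal. Day 4 was led by Sapcd2 (2.60 ± 0.80), Ccna2 (2.16 ± 0.53) and Cdkn3 (1.99 ± 0.64). Day 15 was led by Ttk (2.88 ± 0.92), Kif18b (2.54 ± 0.70) and Ube2t (2.02 ± 0.73). On day 4 the call of Sapcd2 was lost without 30 mg/kg animal 4 or 80 mg/kg animal 4 or 5, and that of Cdkn3 without 30 mg/kg animal 1 or 4 or 80 mg/kg animal 3, 4 or 5 (adjusted p up to 0.104). On day 15 that of Ttk was lost with the mean of probe sets and without 30 mg/kg animal 4, and that of Ube2t without 30 mg/kg animal 3 or 4.

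These dose counts moved with single animals. On day 4 the 22 became 13 or 12 without 30 mg/kg animal 1 or 4, and 14, 8 or 10 without 80 mg/kg animal 3, 4 or 5. On day 15 the 25 became 12 without 30 mg/kg animal 4 and 15 without 80 mg/kg animal 5.

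After 10 days without dosing few calls were made at 80 mg/kg. On day 24 1 of the 41 genes was called higher than control, where 4.96% of all genes were. It was Hmmr, which read 13.9, 7.40, 18.9 and 10.9 in controls and 39.6, 42.2, 34.5, 19.0 and 27.0 at 80 mg/kg. All treated animals were above the controls, the lowest at 19.0 against 18.9 (log2 difference 1.37 ± 0.41, limma adjusted p = 0.0314). The other probe set of Hmmr was 0.62 higher in log2 that day. The median of the 41 was 0.80, against 0.08 over all genes, 37 lay above 0, and 19 had an unadjusted p under 0.05. Cks2 was the other gene without overlap, where 7.10% of all genes had none. Leaving out control 3 or 5, or treated animal 1, 2 or 3, gave 0 calls, and leaving out control 4 gave 4.

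The change on day 24 was below that on day 15 in 41 of 41 genes. The difference between the changes was called for 7: Ccna2, Aurka, Plk1, Melk, Ttk, Kif18b and Kif22. That is near the share of all genes called in this direction (19.0%), though the median of the 41 was -1.24 against -0.02 over all genes. Ttk fell back most (-3.79 ± 1.34, limma adjusted p = 0.0245), from 18.5, 20.3, 18.6, 22.7 and 42.7 at 80 mg/kg on day 15 to 0.75, 4.06, 5.40, 0.29 and 0.56 on day 24. Its day 24 signals lay in the range of the controls, 0.27 to 4.64, or just above it. The call of Ttk was lost without control 1 of day 15 or control 2 or 4 of day 24. Leaving out 80 mg/kg animal 4 of day 24 also lost it (limma adjusted p from 0.0566 to 0.0746 in these fits). That of Kif18b was lost without control 2 of day 24. That of Plk1 was lost without control 5 of day 15 or control 2 or 5 of day 24. The count rested on few animals: it was 15 without control 2 and 4 without control 5 of day 15, 0, 20 or 2 without control 2, 3 or 4 of day 24, 4 without 80 mg/kg animal 5 of day 15, and 11 or 2 without animal 1 or 4 of day 24.

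At 30 mg/kg the lean turned the other way on day 24, with 36 of 41 genes below control (median -0.42). Of the 41, 1 fell, Kntc1, where 0.00703% of all genes, 1 of 14218, did. Its controls read 12.3, 20, 16.2 and 17.4, and the 30 mg/kg animals 8.28, 2.48, 5.26 and 5.34. The groups did not overlap (-1.73 ± 0.34, limma adjusted p = 0.0450), and the change differed from that on day 15 (-1.77 ± 0.46, adjusted p = 0.0473), where 0.471% of all genes were called lower. Both calls were lost in many other settings, among them without control 3, 4 or 5 or without 30 mg/kg animal 2 or 3 of day 24 for the first, where the adjusted p reached 0.590 when only the groups compared were fitted.

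On day 24 the doses lay on opposite sides of control for 32 of the 41 genes. Between the doses 15 genes were higher at 80 mg/kg, where 3.00% of all genes were, with a median of 1.26 against 0.07 over all genes. They were Ccnb2, Cdk1, Cdkn3, Kntc1, Nuf2, Cenpf, Ube2c, Cdca3, Kif2c, Kif20a, Hmmr, Ect2, Racgap1, Prc1 and Ube2t. Cdk1 read 21.1, 10.7, 5.71 and 12.7 at 30 mg/kg, and 48.5, 55.8, 42.5, 19.7 and 34.7 at 80 mg/kg, where 4 of 5 animals were above all of the low dose (1.75 ± 0.48, limma adjusted p = 0.0246). Kif2c differed most: 1.52, 1.38, 5.94 and 1.61 against 26.2, 18.0, 16.8, 7.37 and 13.5 (2.84 ± 0.70, adjusted p = 0.0124), followed by Ube2t (2.80 ± 0.77, adjusted p = 0.0261) and Cdkn3 (2.43 ± 0.64, adjusted p = 0.0215). The call of Kif2c was lost with the mean of probe sets (1.89, adjusted p = 0.0512). That of Ube2t was lost with the offset (1.31, adjusted p = 0.0744), quantile normalization, the actin covariate or only the groups compared, and without 30 mg/kg animal 3 or 80 mg/kg animal 2 or 3. That of Cdkn3 was lost without 30 mg/kg animal 3 (1.46, adjusted p = 0.212) or 80 mg/kg animal 1, and when only the groups compared were fitted. The count was 3 or 9 without 30 mg/kg animal 3 or 4, and 4, 5 or 8 without 80 mg/kg animal 1, 2 or 3. It was 9 with quantile normalization and 1 when only the day 24 arrays of these doses were fitted.

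Arrays of day 24 ran higher in an RNA measure, with some overlap. The ratio of 3' to 5' actin signal, which rises as RNA degrades, ran from 5.84 to 9.76 on day 24 and from 3.77 to 6.37 on the other days. Within day 24 it was 6.04 to 9.76 in controls, 6.54 to 9.30 at 30 mg/kg and 5.84 to 6.76 at 80 mg/kg. The median signal of an array was higher at 80 mg/kg than in controls without overlap on day 8 (17.6 to 19.5 against 15.7 to 16.4), day 15 (16.8 to 19.2 against 15.5 to 16.3) and day 24 (18.9 to 21.1 against 15.9 to 17.8). On day 4 the groups overlapped, and on day 24 the 30 mg/kg arrays had 16.3 to 18.2. The part of these measures in the differences was not tested beyond these values: with the actin ratio as a covariate the 1 call at 80 mg/kg remained 1 in number, and without the day 24 control and 30 mg/kg arrays of the highest ratio, left out after the data were seen, it was 3.

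In several groups a single animal was highest or lowest in most of the 41 genes. On day 8 at 80 mg/kg, animal 4 had the highest signal of its group in 41 of 41 genes, with a median of 7.86 in log2 against 5.44 to 6.49 in the other 4. Without it 38 genes were called on day 8, with a median change of 1.85. In that group animal 5 was lowest in 33 genes. Among controls, animal 1 of day 4 was highest in 37 genes (median 5.18, against 3.54 to 4.34), and animal 3 of day 24 lowest in 31 (2.66 against 3.60 to 4.43). At 80 mg/kg on day 24, animal 4 was lowest in 34 genes (3.75 against 4.38 to 5.10). Other groups were more spread: at 30 mg/kg on day 24 the animals were highest in 24, 7, 4 and 6 genes. Such ranks were not counted over all genes.

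Counted per animal, the 30 mg/kg groups were uneven. Each 80 mg/kg animal had at least 36 of the 41 genes above every control of its day on days 4, 8 and 15. At 30 mg/kg the number ran from 1 to 29 on day 4, from 2 to 38 on day 8 and from 1 to 36 on day 15. Over all genes, 16.0% to 25.3% lay above every control in these 30 mg/kg animals, and 29.9% to 43.2% in the 80 mg/kg animals, so the lowest 30 mg/kg animals had fewer of the 41 than that share. On day 8 animal 3 of the 30 mg/kg group had 38 genes above every control and animals 4 and 5 had 3 and 2. On day 24 the number ran from 3 to 31 at 80 mg/kg (27.2% to 34.3% of all genes) and from 0 to 2 at 30 mg/kg (17.9% to 32.1%).

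**Figure D3:**
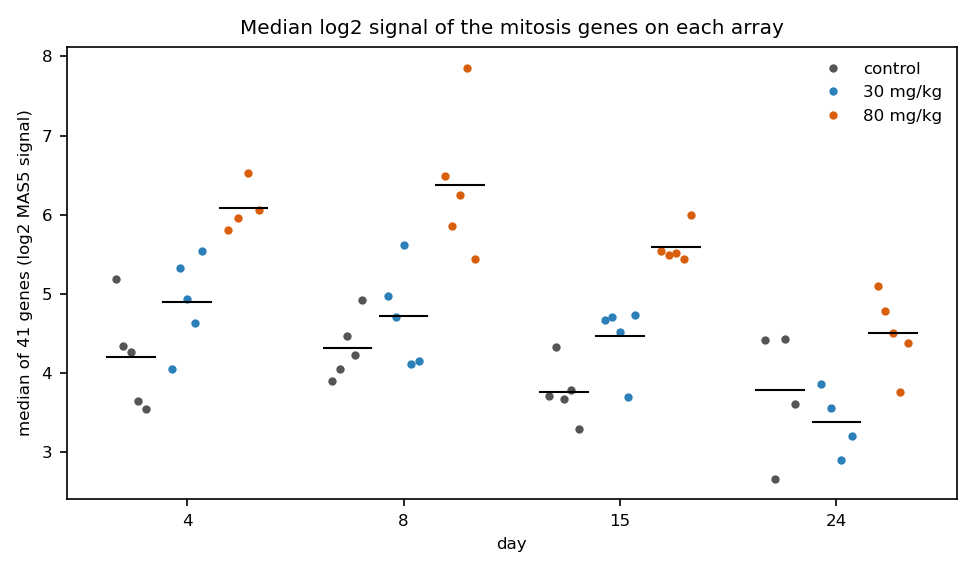
Median log2 MAS5 signal of the 41 mitosis genes on each of the 57 arrays, by day, with control in grey, 30 mg/kg in blue and 80 mg/kg in orange; bars are group means. All 80 mg/kg animals lie above all controls on days 4, 8 and 15, animal 4 of day 8 stands at 7.86, and on day 24 the groups overlap.

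In control livers the genes held no called trend over the first days. Against day 4, 0 of 41 were called on day 8 (1.98% of all genes in either direction) and 0 on day 15 (2.28%), with 1 and 9 at an unadjusted p under 0.05 in limma. On day 15, 33 of 41 lay below the day 4 controls (median -0.61). On day 24 1 gene, Pttg1, was lower than on day 4 (-1.16 ± 0.41, adjusted p = 0.0499; 6.63% of all genes were called lower), and the call was lost with the offset, with the replicate block, and without control 1, 2 or 3 of day 4 or control 2, 3 or 5 of day 24.

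Genes of mitosis outside the list rose as well. At 80 mg/kg 13.2%, 25.9% and 29.8% of all genes rose on days 4, 8 and 15, and 6.49%, 12.3% and 15.6% fell. Of 41 other mitosis genes measured, 22, 33 and 28 rose on those days, with medians of 1.33, 1.55 and 1.27, and none fell. They included the checkpoint protein Mad2l1 (2.20 on day 4), the centriole kinase Plk4 (2.31) and the condensin subunit Ncaph (1.94). Of 26 genes of replication licensing and the fork, 21, 22 and 16 rose, with medians of 0.79, 0.93 and 0.59. Mcm6, a subunit of the replicative helicase, was 1.43 higher on day 4 and the thymidylate synthase Tyms 1.15. On day 24 the medians of these lists were 0.49 and 0.09.

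Of 11 G1/S genes, 4, 5 and 4 rose. Cyclin D1, Ccnd1, rose by 1.67, 2.19 and 2.47 on days 4, 8 and 15, and the cyclin E partner Cdk2 was 0.20 higher, then 0.26 and 0.41 lower, without a call. Of the regulators that act through the CHR and CCAAT elements, Foxm1 and Mybl2 rose on day 8 (1.36 and 1.11). Of the retinoblastoma family, Rbl1 rose on all 3 days (0.76, 1.17 and 0.75), while Rb1 (-0.62, -0.98 and -0.81) and Rbl2 (-0.41, -0.62 and -0.97) fell. In that list of 15 genes, 3, 8 and 6 rose and 2, 2 and 3 fell, with medians of 0.17, 0.21 and 0.27. Of all genes 13.2%, 25.9% and 29.8% rose and 6.49%, 12.3% and 15.6% fell on those days, so the counts of days 4 and 15 were near the background.

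Of 15 CDK inhibitors and G2/M brakes, 6, 11 and 8 rose on days 4, 8 and 15, with medians of 0.51, 0.72 and 0.87. On those days 0, 0 and 1 of them fell. Among all genes 13.2%, 25.9% and 29.8% rose and 6.49%, 12.3% and 15.6% fell. Gadd45a, a stress-induced inhibitor of Cdk1, rose by 2.12, 2.11 and 2.50, the CDK inhibitor Cdkn1a by 1.05, 1.66 and 1.25, and Wee1, the kinase that holds Cdk1 inactive, by 1.34, 1.47 and 2.41. Cdkn1a was still raised on day 24 (0.81). Among subunits and regulators of the APC/C, 4, 9 and 6 of 14 rose and 0, 1 and 3 fell, against the same shares of all genes. Their medians were 0.20, 0.36 and 0.24.

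**Figure D4:**
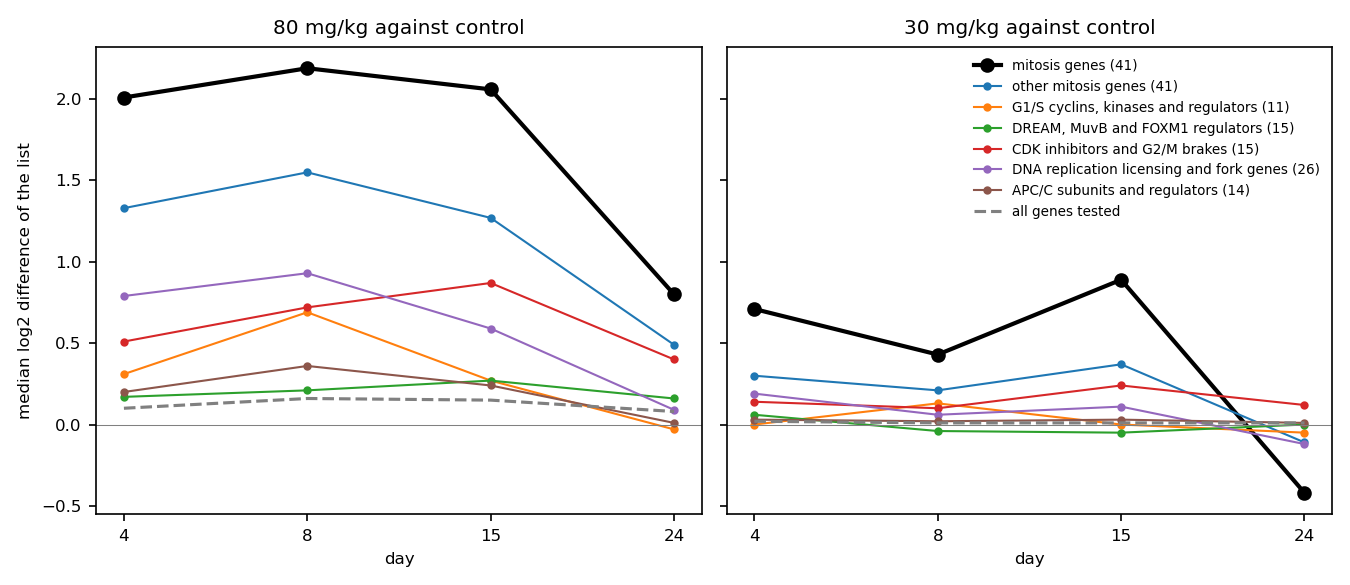
Median log2 difference from control of the mitosis genes and the 6 pathway lists by day (cell type markers are not drawn), at 80 mg/kg (left) and 30 mg/kg (right), with the number of genes measured in brackets and all genes tested as a dashed line. Among these lists the mitosis genes lie highest at 80 mg/kg, at 2.01, 2.19, 2.06 and 0.80, and at 30 mg/kg they pass from 0.89 on day 15 to -0.42 on day 24. Members and lists were chosen with earlier results of these data known, so this order is no independent test.

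Markers of liver cell types show what else moved in these samples. At 80 mg/kg 13.2%, 25.9% and 29.8% of all genes rose on days 4, 8 and 15, and 6.49%, 12.3% and 15.6% fell. Hepatocyte markers were present at high level in every group, with albumin, Alb, from 3031 to 8697, and of 9 markers 1, 6 and 6 fell and 0, 0 and 1 rose at 80 mg/kg on days 4, 8 and 15, the asialoglycoprotein receptor Asgr1 most (-1.17 on day 15). Of 8 markers of bile duct and progenitor cells, 5, 6 and 8 rose, with medians of 1.02, 1.46 and 2.42. Their summed signal was 179 to 296 in day 4 controls and 355 to 551 at 80 mg/kg, and on day 15 it was 236 to 303 and 1017 to 1508. Much of that sum was the marker Epcam, at 98.2 to 193 and 193 to 402 on day 4. On day 15 Epcam read 130 to 191 and 750 to 956. On day 4 Krt19 (19.4 to 43.3 at 80 mg/kg against 25.9 to 41.9) and Krt7 overlapped their controls. On day 15 both lay above them, Krt19 at 57.9 to 115 against 30.0 to 38.4.

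Of 10 macrophage and monocyte markers, 1 rose and 1 fell on day 4, 8 rose and 1 fell on day 8, and 7 rose and 1 fell on day 15. Their summed signal was 2862 to 3583 at 80 mg/kg on day 4, within the 2729 to 3915 of the controls. On days 8 and 15 it lay above the controls without overlap, at 3540 to 4303 against 2337 to 3179 and 3441 to 4524 against 2758 to 3364. On day 24, 8 of these markers rose, where 4.96% of all genes did. Of 12 markers of T and NK cells, 0, 2 and 2 rose on days 4, 8 and 15, where 13.2%, 25.9% and 29.8% of all genes did. Their summed signal at 80 mg/kg was 122 to 159 on day 4 against 127 to 162 in controls, 167 to 216 on day 8 against 122 to 155, without overlap, and 151 to 216 on day 15 against 130 to 161. Among 7 erythroid markers 1 rose on each dosing day, Tfrc, the transferrin receptor, and 0, 2 and 3 fell. The shares of all genes that fell were 6.49%, 12.3% and 15.6%. The part of any of these cell types in the mitosis signals was not tested.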

How the data were processed

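RNA from rat liver was measured on Affymetrix rat arrays in 57 animals. The deposited values are MAS5 signal intensity on a linear scale, per the submitters' processing notes and the values; the version is not given in the sources used here. The authors' table holds 31099 probe sets, and each array had a trimmed mean of 99.992 (2% left out at each end), so all had been scaled alike. Precision is limited by the number of arrays.

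Of the probe sets 20832 had 1 gene symbol, 436 several and 9831 none. By Entrez ID 20764 of the former matched the RefSeq table of GRCr8. Intensity was log2 transformed without an offset, and no filter on low signal was applied, so that each listed gene on the array was tested; 3.31, the 20th percentile of all values, was the offset tried. Genes were represented by the probe set of the highest mean log2 signal.

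limma 3.58.1 in R 4.3.3 fitted means of the 12 groups (lmFit, eBayes with a trend, two-sided moderated tests, Benjamini-Hochberg over 14218 genes, called under 0.05). The script was tested on simulated data. Figures used matplotlib 3.10.9.

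Values of every animal are given for the gene of the highest mean signal in each role. Other genes are named for the 2 largest and 2 smallest changes of a day, for a call at 30 mg/kg, for the 3 largest called differences, or as members of the list, and from other lists up to 4 called genes of the largest change. The members and lists were chosen with earlier results of these data known. Further genes whose animals are shown (among them Cdk1 and Hmmr), and genes of other lists outside the rule (among them Cdk2, Rbl2, Cdkn2b, Col1a1 and Pecam1), were chosen after their values were seen.

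The alternatives changed the scaling, filter, offset, probe set, variance trend, actin ratio, groups fitted, replicate block and animals. Same-numbered animals of different groups did not deviate together (median correlation -0.000153 over 298 pairs, 0 over 0.1), so numbers were not taken to pair animals. Arrays of a group are separate animals, per the labels.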

Additional observations from a re-analysis of the deposited data

Results flagged for a closer look

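Dixon's test was run 132 times (the 12 groups of 4 or 5 arrays, for the 10 genes with values for every animal and for the median of the mitosis genes). In 10 of these tests an animal lay far from the rest of its group, which chance gives in about 1 in 20 tests. The tests share animals, and several of the 10 fell in the same group. At 80 mg/kg on day 24, animal 4 was lowest for Aurka (signal 2.90), Cdca3 (22.2) and Prc1 (21.5). On day 24 at 30 mg/kg, animal 4 was lowest for Aurka (6.32). High values were those of Nuf2 in 80 mg/kg animal 4 of day 8 (224), Nusap1 in control 2 of day 15 (32.5), Prc1 in 80 mg/kg animal 5 of day 15 (130) and Top2a in 80 mg/kg animal 4 of day 4 (107). The median log2 signal of the mitosis genes was low in 30 mg/kg animal 4 of day 15 (3.69) and high in 80 mg/kg animal 5 of that day (5.99).

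The change at 80 mg/kg was smaller on day 24 than on day 15 by a limma test of the difference itself for Ccna2 (-2.04, adjusted p = 0.0260), Aurka (-1.90, 0.0331), Plk1 (-3.07, 0.0251), Melk (-1.44, 0.0415), Ttk (-3.79, 0.0245), Kif18b (-3.07, 0.0170) and Kif22 (-1.83, 0.0313). At 30 mg/kg the same held for Kntc1 (-1.77, adjusted p = 0.0473).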

How the results depend on the processing

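The counts of mitosis genes called at 80 mg/kg on days 4, 8 and 15, and between doses on days 4, 8 and 15, stayed within 1.5 times under each alternative that kept all animals, and no named gene reversed. Without single animals the 80 mg/kg counts ran from 34 to 39, 38 to 41, 39 to 40 and 0 to 4 on days 4, 8, 15 and 24. The 30 mg/kg counts ran from 0 to 1, 0 to 0, 0 to 4 and 0 to 1, and those between doses from 8 to 27, 29 to 41, 12 to 27 and 3 to 18. For the change of the 80 mg/kg effect they ran from 0 to 1 between days 4 and 8 and from 0 to 20 between days 15 and 24, for that of the 30 mg/kg effect between days 15 and 24 from 0 to 1, and for controls of days 8, 15 and 24 against day 4 from 0 to 1, 0 to 1 and 0 to 2.

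On day 24 the 1 call at 80 mg/kg became 0 with quantile normalization or the mean of probe sets, and 3 without the arrays of the highest actin ratio. The 15 between doses became 9 with quantile normalization and 1 when only the groups compared were fitted. The 7 between days 15 and 24 became 15 with arrays shifted to a common median, 11 with the filter, 13 when only the groups compared were fitted and 2 without the high-actin arrays. At 30 mg/kg the 0 of day 8 became 1 when only the groups compared were fitted, and the 1 of day 15 became 0 with the offset. The 1 of day 24 became 0 with the offset, the actin covariate, only the groups compared, or without the high-actin arrays. The 1 between days 15 and 24 became 0 in these and with a common median, the mean of probe sets or no variance trend. For control day 24 the 1 became 2 with the filter and 0 with the offset, the mean of probe sets, no trend or only the groups compared. The causes were not tested.

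With the replicate number as a block the counts at 80 mg/kg were 38, 41, 40 and 1, between doses 23, 40, 24 and 14, and for control day 24 against day 4 it was 0. Of the 57 arrays 15 lay closest to one of their own number. Faint signals limit the folds of genes near background.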

Other observations

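Among the other mitosis genes measured, Gtse1, a microtubule and p53 regulator, had the largest log2 change at 80 mg/kg on day 8 (3.83) and read 3.37 on day 15, and the kinetochore scaffold Knl1 read 3.66 on day 15. The atypical repressor E2f8 rose by 1.79, 1.84 and 2.54 on days 4, 8 and 15, and the MuvB subunit Lin9 by 0.86, 1.69 and 1.27. The CDK inhibitor Cdkn2b rose on day 15 (2.37) and had no call on days 4 and 8 (-0.66 and 0.62).

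On day 24 at 80 mg/kg, where 4.96% of all genes rose, 3 of 15 CDK inhibitors and brakes did: Cdkn1a (0.81), Cdkn2d (0.79) and Ccng2 (0.51). That day 4 of 10 stellate cell and myofibroblast markers and 3 of 7 endothelial markers rose too at 80 mg/kg. Among them were Col1a1 (0.96) and Pecam1 (0.58), chosen after their values were seen.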
